A study of Homo sapiens with 8 samples.

Results

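Genes of the unfolded protein response and of the transcription factor ATF4 were followed in ribosome-associated RNA of brain-metastatic breast carcinoma cells grown with or without astrocytes. The 41 genes, of 57445 in the deposited count table, were taken by gene symbol and split by role. The ATF4 group holds 20 genes (ATF4, related factors and their targets) and the ER group holds 21 genes (chaperones, folding enzymes, degradation factors and sensors of the endoplasmic reticulum). The members were selected on values from these libraries, namely on the direction of the ATF4 targets and of the ER chaperones when connexin 43 was depleted. That comparison is therefore given as a description, and its counts of called genes are no test of these members.

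MDA231-BrM2 is a line derived from MDA-MB-231 breast cancer cells that is metastatic to brain. The cells were processed by translating ribosome affinity purification (TRAP), an immunoprecipitation with anti-GFP antibody that recovers polysome-bound RNA of the tagged carcinoma cells. The 8 libraries formed 4 groups of 2: cells labelled Cx43sh1 with astrocytes (hairpin 1), cells labelled Cx43sh2 with astrocytes (hairpin 2), cells with a control hairpin and astrocytes (control coculture), and cells with the control hairpin and no astrocytes (control cells alone). Cx43 is connexin 43, the gap junction protein encoded by GJA1. Astrocytes and carcinoma cells were mixed at 1 to 1 and kept together for 24 h. All 4 groups carry a hairpin, and depleted cells without astrocytes were not part of the design, so every value for depleted cells also includes the astrocytes. The labels do not say whether a hairpin line is a clone, nor the species of the astrocytes. The 2 libraries of a group are called independent replicates in the series design, and all p-values rest on them.

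The unfolded protein response starts at 3 sensors in the ER membrane. PERK (EIF2AK3) phosphorylates the translation factor eIF2, which slows protein synthesis and favours translation of ATF4, while IRE1 (ERN1) splices XBP1 mRNA and ATF6 is cleaved to a transcription factor, and the ATF6 and XBP1 products raise ER chaperones. Other eIF2 kinases, which sense haem, double-stranded RNA or a lack of amino acids, feed into the same ATF4 step. This shared branch is the integrated stress response. ATF4 then raises genes for amino acid synthesis and uptake, for serine and folate metabolism, and feedback regulators such as TRIB3. Gene counts on ribosomes do not resolve XBP1 splicing or the place of ribosomes on the ATF4 transcript. All 8 libraries are described as TRAP RNA, so more of a transcript and more ribosomes on it cannot be told apart here.

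Promoters carry short motifs that these factors are known to bind. The 8 promoters shown were picked among members with a match. Members with no match, such as TRIB3, SESN2, VLDLR and STC2, are therefore not shown. Sequences are the 250 bases before the start of the gene in RefSeq (GRCh38.p14), 5′ to 3′ on the strand of the gene, and 38 of the 41 members were found in that table. Capitals mark matches, on either strand, to the CARE motif of ATF4 and its CEBP partners (TGATGNAA), to the ER stress element ERSE (CCAAT, then 9 bases of any kind, then CCACG) or to ERSE-II (ATTGG, then 1 base of any kind, then CCACG). No match shown overlaps another. The first 2 lines are ATF4 targets with a CARE match, HERPUD1 has both a CARE and an ERSE-II match, and the other lines are ER genes with ERSE or ERSE-II matches. CHAC1 lies at chr15:40953221-40953470 (plus strand), ASNS at chr7:97872409-97872658 (minus), HERPUD1 at chr16:56931892-56932141 (plus) and HSPA5 at chr9:125241344-125241593 (minus). HSP90B1 lies at chr12:103930160-103930409 (plus), CALR at chr19:12938359-12938608 (plus), SDF2L1 at chr22:21642052-21642301 (plus) and XBP1 at chr22:28800570-28800819 (minus).
CHAC1: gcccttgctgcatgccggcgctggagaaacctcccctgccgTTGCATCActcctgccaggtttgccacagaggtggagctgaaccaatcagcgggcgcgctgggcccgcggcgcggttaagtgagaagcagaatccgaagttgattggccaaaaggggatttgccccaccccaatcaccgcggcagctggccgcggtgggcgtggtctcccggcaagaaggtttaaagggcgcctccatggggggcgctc
ASNS: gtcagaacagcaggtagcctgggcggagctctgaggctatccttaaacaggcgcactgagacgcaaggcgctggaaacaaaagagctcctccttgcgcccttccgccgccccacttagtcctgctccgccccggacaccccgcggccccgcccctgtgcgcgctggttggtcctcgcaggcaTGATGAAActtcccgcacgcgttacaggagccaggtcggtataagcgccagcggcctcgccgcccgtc
HERPUD1: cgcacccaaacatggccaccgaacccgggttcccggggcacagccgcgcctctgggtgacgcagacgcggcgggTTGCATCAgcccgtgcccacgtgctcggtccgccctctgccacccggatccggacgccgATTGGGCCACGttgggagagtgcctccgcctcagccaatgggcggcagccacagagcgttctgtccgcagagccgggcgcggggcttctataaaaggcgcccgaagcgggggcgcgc
HSPA5: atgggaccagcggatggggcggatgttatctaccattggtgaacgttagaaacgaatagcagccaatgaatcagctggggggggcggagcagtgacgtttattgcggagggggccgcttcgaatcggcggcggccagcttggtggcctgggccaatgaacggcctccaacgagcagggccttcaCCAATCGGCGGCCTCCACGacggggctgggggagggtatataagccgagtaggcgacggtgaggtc
HSP90B1: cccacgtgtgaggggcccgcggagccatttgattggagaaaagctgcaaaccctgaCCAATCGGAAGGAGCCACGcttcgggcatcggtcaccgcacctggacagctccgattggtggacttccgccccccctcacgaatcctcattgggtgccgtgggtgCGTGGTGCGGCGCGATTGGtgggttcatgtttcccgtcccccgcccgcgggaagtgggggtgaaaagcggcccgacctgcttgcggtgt
CALR: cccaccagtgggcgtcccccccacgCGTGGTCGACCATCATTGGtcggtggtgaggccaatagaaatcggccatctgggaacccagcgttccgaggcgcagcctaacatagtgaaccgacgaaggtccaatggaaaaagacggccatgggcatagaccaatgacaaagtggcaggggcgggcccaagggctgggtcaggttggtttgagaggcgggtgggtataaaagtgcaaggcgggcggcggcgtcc
XBP1: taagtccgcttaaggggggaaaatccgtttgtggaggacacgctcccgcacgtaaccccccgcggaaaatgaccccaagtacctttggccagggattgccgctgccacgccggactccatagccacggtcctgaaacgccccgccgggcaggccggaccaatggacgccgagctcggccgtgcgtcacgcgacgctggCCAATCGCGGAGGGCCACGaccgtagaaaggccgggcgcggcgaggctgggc
SDF2L1: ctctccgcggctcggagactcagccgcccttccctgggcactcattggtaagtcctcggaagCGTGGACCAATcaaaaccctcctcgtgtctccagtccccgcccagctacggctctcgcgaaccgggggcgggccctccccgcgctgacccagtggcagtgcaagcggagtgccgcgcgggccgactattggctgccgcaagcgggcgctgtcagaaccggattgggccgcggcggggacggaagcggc

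Counting the first base of the match back from the start of the gene, CARE stood at -209 in CHAC1 and at -68 in ASNS, and ERSE stood at -66 in HSPA5, -225 in CALR and -52 in XBP1. Members were counted as genes with a match in any of their promoters, while the shares of all promoters count each promoter, so the units differ. CARE was found in 3 of the 38 member genes (CHAC1, ASNS and HERPUD1) and in 3.14% of 35116 promoters of the same length. Of the 18 ATF4-group genes 2 had a CARE match. ERSE was found in 7 of the 20 ER-group genes (HSPA5, HSP90B1, CALR, CANX, CRELD2, PDIA6 and XBP1), in 0 of the 18 ATF4-group genes and in 0.074% of all promoters. ERSE-II was found in HERPUD1, HYOU1 and SDF2L1 and in 0.0513% of all promoters. A match describes these letters only and shows neither binding nor the source of a change.

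Reads counted in genes came to between 38219702 and 48997555 per library. Levels are CPM (counts scaled to a common library total), computed from the counts with TMM-scaled library sizes, and 3 counts correspond to between 0.0624 and 0.0805 CPM. GJA1, the targeted gene, stood at 27.8 and 27.8 CPM with hairpin 1 and 31.7 and 33.8 CPM with hairpin 2, against 65.9 and 64.6 CPM in control cocultures and 51.1 and 46.3 CPM in control cells alone. VIM, an abundant transcript of the carcinoma line, stood at 1429 and 1547 CPM with hairpin 1 and 1373 and 1355 CPM with hairpin 2, against 2174 and 2094 CPM in control cocultures and 1504 and 1317 CPM in control cells alone. Of 10 astrocyte markers, S100B and GJB6 were under 3 counts in every library. The summed level of the 10 was 63.0 to 71.7 CPM with hairpin 1, 57.7 CPM in both hairpin 2 libraries, 69.2 to 70.4 CPM in control cocultures and 51.0 to 55.0 CPM in control cells alone. Against control cells alone, 3 of the 6 tested were called higher and 0 lower in control cocultures, where 8.74% of all genes were called higher. In depleted cells 2 were called higher and 0 lower, where 10.8% of all genes were called higher. The sum of 7 microglia and macrophage markers was 2.8 to 3.6 CPM over the cocultures and 1.4 to 1.7 CPM in control cells alone. Replicates were not equally close. Between the 2 hairpin 1 libraries 10 of the 41 members differed by more than 0.2 on the log2 scale, against 1 between hairpin 2 libraries, 3 between control cocultures and 1 between control cells alone. The log2 ratio of library 2 over library 1 correlated with exon length across 15434 genes, with a Spearman rho of 0.389 for hairpin 1, 0.284 for hairpin 2, -0.373 for the control coculture and -0.263 for control cells alone, where genes are not independent replicates. The part of this in the results was not tested, and what each library does to the calls is given with each comparison.

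All 41 members passed the filter of a mean of 10 counts. Per kilobase of merged exons, CALR, the ER lectin chaperone calreticulin, had the highest level in every group. It stood at 363 ± 6.83 CPM per kb with hairpin 1, 361 ± 0.273 with hairpin 2, 470 ± 5.73 in control cocultures and 437 ± 5.12 in control cells alone (SD, n = 2 each). ERN1, the IRE1 sensor, had the lowest, at 1.06 ± 0.0413 CPM per kb in control cocultures and 0.870 ± 0.00219 in control cells alone. In the control coculture CALR was followed by ATF4 (222 ± 17.4 CPM per kb), the amino acid transporter SLC7A5 (142 ± 14.1) and the lectin chaperone CANX (121 ± 5.29). MANF (89.3 ± 13.6) and HSP90B1 (89.2 ± 0.259) came next in that order of length-scaled levels and did not differ beyond their spread. Some members, such as HSP90B1, PDIA3, ASNS and SLC7A5, have pseudogene copies in the genome, so their counts can miss reads that map to several places. Which other members have such copies was not checked.

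Over the whole group the summed ATF4-group level was 3066 and 3133 CPM with hairpin 1 and 2965 and 2929 CPM with hairpin 2, against 2477 and 2462 CPM in control cocultures and 2884 and 2850 CPM in control cells alone. The summed ER-group level was 3980 and 3907 CPM with hairpin 1 and 3996 and 4009 CPM with hairpin 2, against 4576 and 4641 CPM in control cocultures and 4302 and 4274 CPM in control cells alone. In both groups the control coculture was the extreme condition, lowest for the sum of ATF4-group genes and highest for that of ER genes. These sums are led by the few most abundant members. SLC7A5, ATF4 and PPP1R15A are among those of the ATF4 group, and CALR and CANX among those of the ER group.

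**Figure D1:**
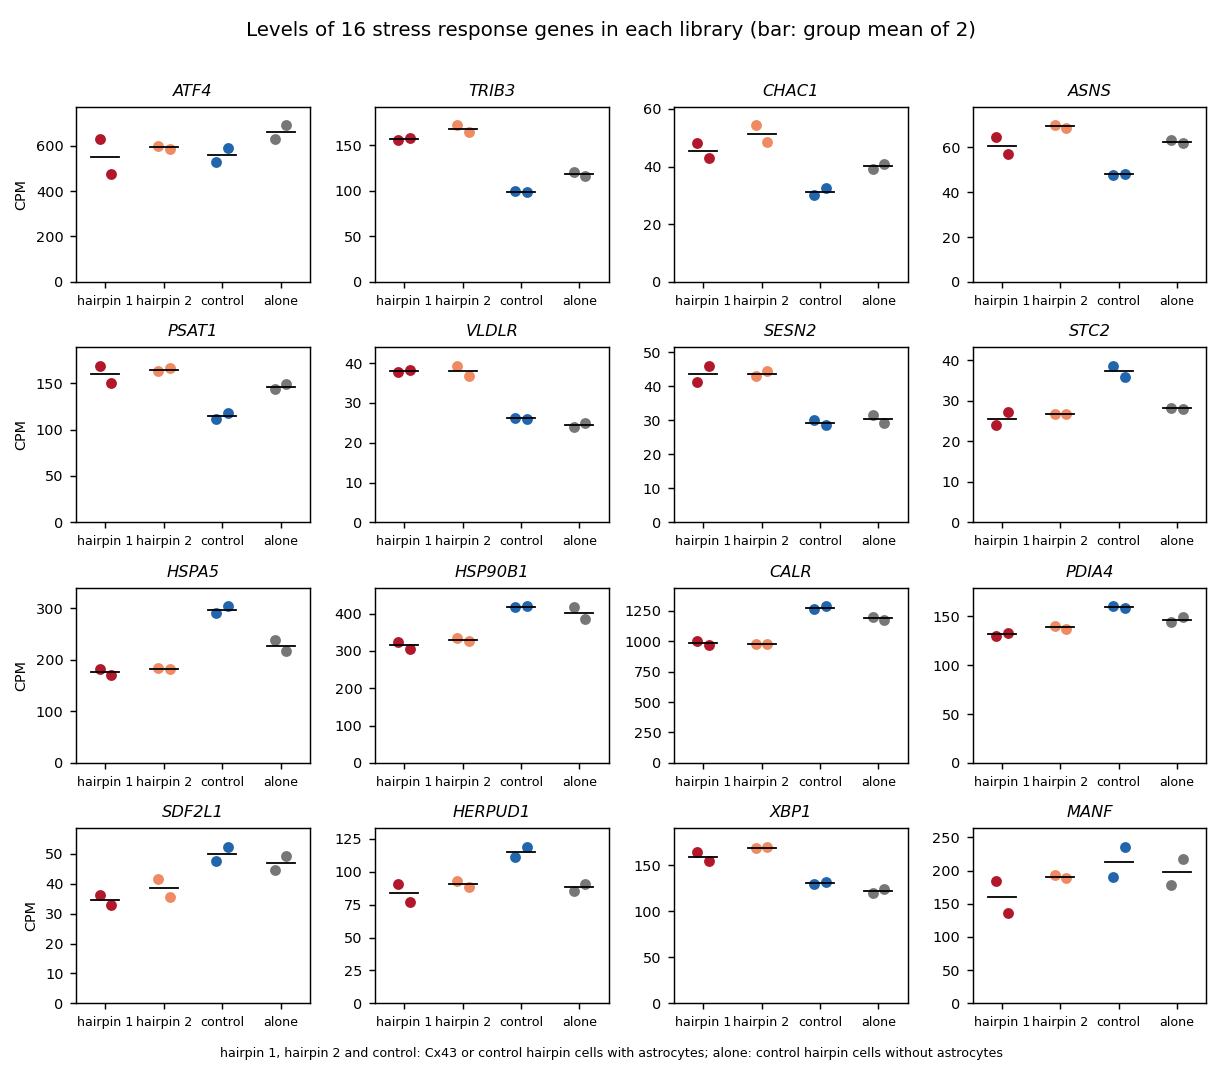
Level in CPM of 16 members in each of the 8 libraries, by group (hairpin 1 coculture, hairpin 2 coculture, control coculture, control cells alone); points are libraries and the bar is the mean of 2. TRIB3, CHAC1, ASNS and PSAT1 are lowest in control cocultures, while HSPA5, HERPUD1 and STC2 are highest there.

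The first comparison set depleted cells with astrocytes against the control coculture, to describe how ribosome-associated transcripts of the stress response differ when connexin 43 is low. In the fit over all genes 9.22% were called at an adjusted p under 0.05, 3.37% higher and 5.85% lower in depleted cells. Of the ATF4 group 11 of 20 were called higher and 1 lower, with a median log2 change of 0.31. Of the ER group 1 of 21 was called higher and 6 lower, with a median of -0.08. The median over all genes tested was -0.01 (log2). All 4 depleted libraries lay above both control cocultures in 14 of the 20 ATF4-group members and 3 of the 21 ER-group members, where 16.4% of all genes did so. They lay below in 2 and 7 members of these groups, where 18.1% of all genes did so. Of these 19 calls, 11 ended without library 2 of the control coculture, 7 without its library 1, 8 without library 2 of hairpin 2, 4 without library 1 of hairpin 2 and 1 without library 1 of control cells alone, while 8 held without each library. Since the members were taken for their direction here, nothing is read from these counts, and they are no test of it.

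Within the ATF4 group TRIB3 differed most, and the regulators CHAC1 and SESN2 were higher with it. TRIB3 (ENSG00000101255.6), a pseudokinase that restrains ATF4 and CHOP activity, stood at 156 and 158 CPM with hairpin 1 and 172 and 164 CPM with hairpin 2, against 99.2 and 98.1 CPM in control cocultures. CHAC1 (ENSG00000128965.7), which degrades glutathione, stood at 48.1 and 42.9 CPM with hairpin 1 and 54.3 and 48.5 CPM with hairpin 2, against 30.2 and 32.6 CPM in control cocultures. SESN2 (ENSG00000130766.4), a leucine-binding inhibitor of mTORC1, stood at 41.1 and 46.0 CPM with hairpin 1 and 43.0 and 44.3 CPM with hairpin 2, against 30.0 and 28.5 CPM in control cocultures. In each of these genes all 4 depleted libraries lay above both control cocultures. The log2 change was 0.72 (SE 0.0547) for TRIB3, 0.62 (SE 0.0777) for CHAC1 and 0.58 (SE 0.0707) for SESN2.

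Another feedback gene behaved differently. PPP1R15A, the GADD34 subunit that directs dephosphorylation of eIF2, stood at 225 and 212 CPM with hairpin 1 and 217 and 214 CPM with hairpin 2, against 207 and 206 CPM in control cocultures. Its groups did not overlap, but the log2 change was only 0.07 (SE 0.0556).

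Secreted and surface products of the ATF4 group went both ways. ADM2, a peptide hormone of the calcitonin family, stood at 13.9 and 13.2 CPM with hairpin 1 and 14.3 and 13.3 CPM with hairpin 2, against 8.81 and 8.77 CPM in control cocultures (log2 change 0.64, SE 0.0789). VLDLR, a lipoprotein receptor that ATF4 raises, stood at 37.8 and 38.3 CPM with hairpin 1 and 39.3 and 36.8 CPM with hairpin 2, against 26.3 and 26.0 CPM in control cocultures (0.54, SE 0.0614). STC2, a secreted glycoprotein induced by ER stress, stood at 24.0 and 27.1 CPM with hairpin 1 and 26.7 and 26.8 CPM with hairpin 2, against 38.6 and 35.9 CPM in control cocultures (-0.51, SE 0.0683). In STC2 all 4 depleted libraries lay below both control cocultures.

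Among genes of amino acid synthesis, PSAT1 and ASNS were higher in depleted cells. PSAT1, the aminotransferase of serine synthesis, stood at 169 and 150 CPM with hairpin 1 and 163 and 166 CPM with hairpin 2, against 111 and 118 CPM in control cocultures (0.50, SE 0.0663). ASNS, asparagine synthetase, stood at 64.6 and 56.9 CPM with hairpin 1 and 69.9 and 68.9 CPM with hairpin 2, against 47.9 and 48.0 CPM in control cocultures (0.44, SE 0.065). CTH, which makes cysteine from cystathionine, had a log2 change of 0.39 (SE 0.0839). PHGDH, which starts serine synthesis upstream of PSAT1, lay on the other side of 0 at -0.21 (SE 0.0619), with 22.8 and 22.6 CPM with hairpin 1 and 26.0 and 23.9 CPM with hairpin 2, against 27.9 and 27.0 CPM in control cocultures.

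The mitochondrial enzymes were higher by less. MTHFD2, of mitochondrial folate metabolism, had a log2 change of 0.31 (SE 0.0542). SHMT2, the mitochondrial serine hydroxymethyltransferase, was at 0.32 (SE 0.0536) and PCK2, the mitochondrial form of PEP carboxykinase, at 0.16 (SE 0.0604). In all 3 the depleted libraries lay above both control cocultures.

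Amino acid transporters differed in precision. SLC7A5, the light chain of the large neutral amino acid transporter LAT1, stood at 920 and 1204 CPM with hairpin 1 and 813 and 820 CPM with hairpin 2, against 721 and 626 CPM in control cocultures (0.47, SE 0.113). The hairpin 1 libraries were far apart in this gene, and all 4 depleted libraries lay above both control cocultures. Its heavy chain partner SLC3A2 overlapped between groups (0.07, SE 0.063). The cystine transporter SLC7A11 was at 0.26 (SE 0.0694), its groups not overlapping.

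The 3 transcription factors overlapped between groups. ATF4 itself stood at 627 and 474 CPM with hairpin 1 and 599 and 585 CPM with hairpin 2, against 526 and 588 CPM in control cocultures, so its groups overlapped (0.03, SE 0.108). DDIT3, which encodes CHOP, stood at 41.8 and 27.3 CPM with hairpin 1 and 42.7 and 40.6 CPM with hairpin 2, against 28.4 and 39.0 CPM in control cocultures (0.17, SE 0.173). ATF5, an ATF4-related factor, was at -0.06 (SE 0.068). DDIT3 had the widest spread between replicates of all members in both the hairpin 1 and the control coculture libraries.

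In the ER group HSPA5, HSP90B1 and CALR were lower in depleted cells. HSPA5 (ENSG00000044574.7), the HSP70 chaperone BiP, stood at 182 and 170 CPM with hairpin 1 and 184 and 181 CPM with hairpin 2, against 291 and 304 CPM in control cocultures (-0.73, SE 0.0612). HSP90B1, the ER HSP90, stood at 325 and 306 CPM with hairpin 1 and 334 and 326 CPM with hairpin 2, against 418 and 420 CPM in control cocultures (-0.38, SE 0.0584). CALR stood at 998 and 971 CPM with hairpin 1 and 978 and 979 CPM with hairpin 2, against 1264 and 1286 CPM in control cocultures (-0.38, SE 0.052). The groups did not overlap in any of these 3 genes. HYOU1, the exchange factor of BiP, was at -0.08 (SE 0.0767) and CANX, the membrane-bound relative of calreticulin, also at -0.08 (SE 0.0612), both with overlapping groups.

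Cofactors and folding enzymes were mixed. SDF2L1, a partner of the BiP cochaperones, stood at 36.4 and 32.7 CPM with hairpin 1 and 41.4 and 35.6 CPM with hairpin 2, against 47.7 and 52.3 CPM in control cocultures (-0.46, SE 0.0853). Of the disulfide isomerases PDIA4 was at -0.24 (SE 0.0508), while PDIA3 (-0.15, SE 0.0848) and PDIA6 (-0.11, SE 0.0654) had smaller differences. DNAJB9 (0.01, SE 0.0664), DNAJB11 (0.05, SE 0.0724) and DNAJC3 (0.20, SE 0.0893), J-domain cochaperones of BiP, had small differences. MANF, a secreted ER protein, had a wide error (-0.28, SE 0.134), and CRELD2, another secreted ER stress protein, was at 0.04 (SE 0.0631).

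Degradation factors and sensors were mixed. HERPUD1, a scaffold of the ER degradation complex, stood at 90.3 and 77.2 CPM with hairpin 1 and 92.9 and 88.2 CPM with hairpin 2, against 111 and 119 CPM in control cocultures (-0.40, SE 0.0734). The other degradation genes EDEM1, SEL1L and SYVN1 lay between -0.09 and 0.13. XBP1 (ENSG00000100219.12) stood at 164 and 154 CPM with hairpin 1 and 168 and 170 CPM with hairpin 2, against 130 and 131 CPM in control cocultures (0.33, SE 0.0554). All 4 depleted libraries lay above both control cocultures in XBP1. EIF2AK3 was at 0.18 (SE 0.0647) and ERN1 at 0.02 (SE 0.0703).

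**Figure D2:**
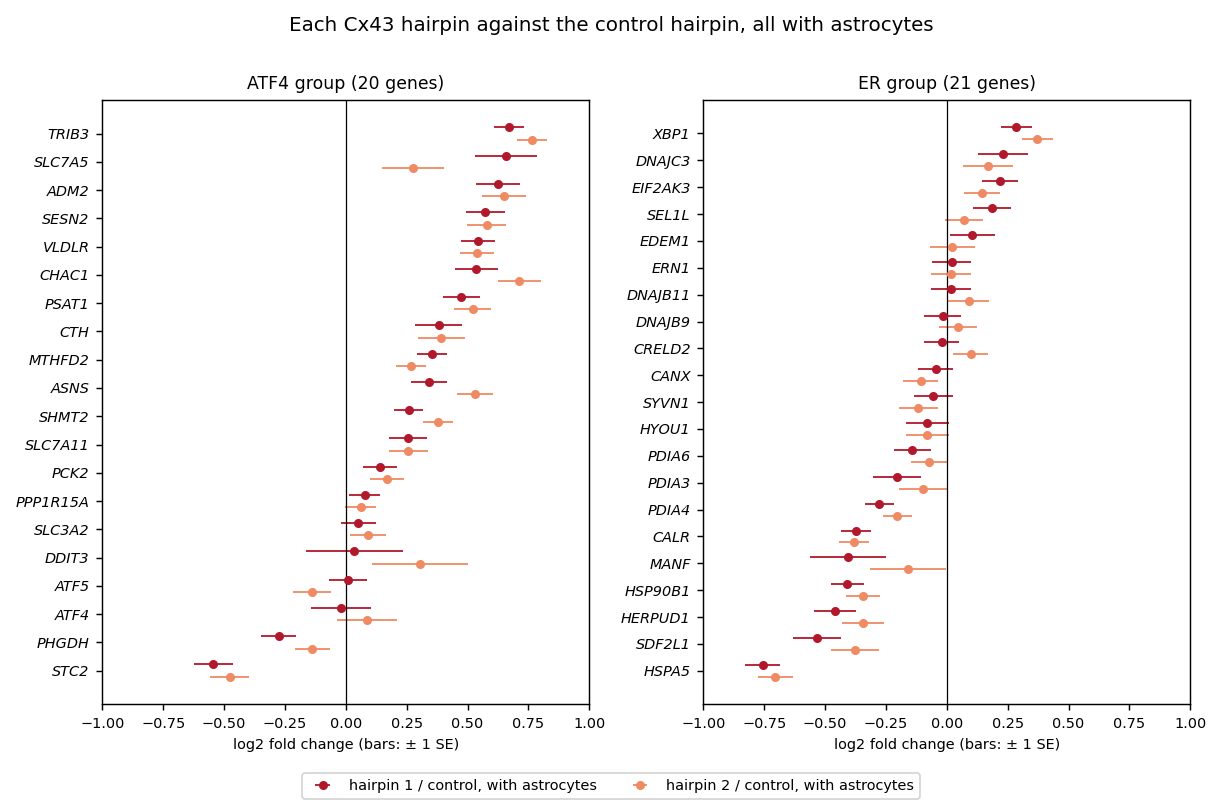
Log2 change of each of the 41 members in hairpin 1 and in hairpin 2 cocultures against the control coculture, with bars of 1 standard error from the fit over all genes. TRIB3 stands at 0.67 with hairpin 1 and 0.77 with hairpin 2, and HSPA5 at -0.76 and -0.70.

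The 2 hairpins were then compared with each other, a difference that the choice of members did not use. None of the 41 members passed edgeR's quasi-likelihood test between hairpin 2 and hairpin 1 (smallest adjusted p = 0.705), where 0.0316% of all genes were called. ASNS (log2 difference 0.19, SE 0.07) and SLC7A5 (-0.38, SE 0.13) had an unadjusted p under 0.05 in that test. How many of all genes did so was not counted, so nothing is read from these unadjusted p-values. DESeq2 called no member either, while 1 was called by edgeR with no filter on low counts, SLC7A5. The log2 differences of the 41 ran from -0.38 to 0.27, and their standard errors were 0.06 to 0.20. For TRIB3 the log2 difference was 0.10 (SE 0.06) and for HSPA5 0.05 (SE 0.07). GJA1 itself was at 0.24 (adjusted p = 0.705). A p above the threshold does not show that the hairpins act alike. The differences of ASNS and SLC7A5 were larger than their standard errors. So were those of other members, such as CHAC1 (0.18, SE 0.09) and PHGDH (0.14, SE 0.07), and a difference of that size is not a call.

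Control cells with astrocytes were set against control cells alone to ask which members differ when astrocytes are present. The control coculture libraries are the same as in the depletion comparison, so a member that is low in them is low here and high there. Of the ATF4 group 6 of 20 members fell and 1 rose, where 2.93% of all genes fell and 8.74% rose (11.7% called in all). Of the ER group 2 of 21 rose and none fell. The median log2 change was -0.22 over the ATF4 group and 0.10 over the ER group, against 0.00 over all genes tested. The control coculture libraries lay below both libraries of control cells alone in 13 of the 20 ATF4-group members, where 26.3% of all genes did so, and above them in 4, where 30.0% of all genes did. In the ER group 11 of 21 members lay above and 1 below without overlap.

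The members of the ATF4 group that fell were ASNS, SLC7A11, PPP1R15A, CHAC1, PSAT1 and TRIB3. PPP1R15A stood at 207 and 206 CPM in control cocultures, against 258 and 272 CPM in control cells alone (log2 change -0.36, SE 0.064, adjusted p = 0.0083 by edgeR's quasi-likelihood test). ASNS stood at 47.9 and 48.0 CPM in control cocultures, against 63.2 and 62.0 CPM in control cells alone (-0.38, SE 0.0738, adjusted p = 0.0118). Here the libraries with astrocytes agreed closely and both lay below the cells alone. SLC7A11 stood at 46.3 and 42.5 CPM in control cocultures, against 60.1 and 55.6 CPM in control cells alone (-0.38, SE 0.0792, adjusted p = 0.0167). PSAT1 stood at 111 and 118 CPM in control cocultures, against 144 and 149 CPM in control cells alone (-0.35, adjusted p = 0.0183). TRIB3 (-0.27, adjusted p = 0.0251) and CHAC1 (-0.36, adjusted p = 0.0331) fell as well.

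STC2 rose, with 38.6 and 35.9 CPM in control cocultures, against 28.2 and 27.9 CPM in control cells alone (0.41, SE 0.0799, adjusted p = 0.0129). ATF4 stood at 526 and 588 CPM in control cocultures, against 628 and 689 CPM in control cells alone, and did not pass (-0.24, SE 0.124, adjusted p = 0.252). ATF5 (-0.27, adjusted p = 0.0559) and ADM2 (-0.28, adjusted p = 0.0808) also missed the threshold. VLDLR (0.10), SESN2 (-0.05) and MTHFD2 (-0.03) had log2 changes near 0 and adjusted p between 0.403 and 0.761.

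In the ER group HSPA5 rose, with 291 and 304 CPM in control cocultures, against 239 and 216 CPM in control cells alone (0.39, SE 0.0723, adjusted p = 0.0103). HERPUD1 rose too, with 111 and 119 CPM in control cocultures, against 85.6 and 90.6 CPM in control cells alone (0.38, SE 0.0859, adjusted p = 0.0225). Both genes had lower levels in the hairpin cocultures than in the control coculture, as given above. EDEM1 (0.32, adjusted p = 0.0602), which recognises misfolded glycoproteins, and ERN1 (0.29, adjusted p = 0.056) lay just outside the threshold. HSP90B1 (0.06), CALR (0.10) and PDIA4 (0.12), which were lower in depleted cells, did not pass here (adjusted p = 0.644, 0.313 and 0.228). XBP1 was at 0.10 (adjusted p = 0.355).

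None of these 9 calls held when each of the 8 libraries was left out in turn. PPP1R15A lost its call without library 2 of control cells alone, and also without library 1 of the control coculture (log2 change -0.41 to -0.33 over the fits, highest adjusted p = 0.0722). SLC7A11 lost it without library 1 of control cells alone, or without library 2 of the control coculture (-0.45 to -0.34, highest adjusted p = 0.0918), and HSPA5 without library 2 of either group (0.31 to 0.45, highest adjusted p = 0.107). PSAT1 (-0.42 to -0.31, highest adjusted p = 0.134) and STC2 (0.36 to 0.44, highest adjusted p = 0.104) did so when library 1 of the control coculture was left out, and likewise for library 1 or 2 of control cells alone. ASNS lost it without any 1 of the 4 compared libraries (-0.41 to -0.38, highest adjusted p = 0.0755). TRIB3 (-0.30 to -0.25, highest adjusted p = 0.132), CHAC1 (-0.43 to -0.30, highest adjusted p = 0.2) and HERPUD1 (0.32 to 0.43, highest adjusted p = 0.153) lost it without any 1 of these 4 or either hairpin 2 library. None of the 9 changed direction.

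Interferon-stimulated genes moved with the same libraries. The summed level of 25 such genes was 382 to 399 CPM with hairpin 1 and 479 to 490 CPM with hairpin 2, against 3273 to 3506 CPM in control cocultures and 263 to 267 CPM in control cells alone. Fibroblast markers, which are led here by COL1A1, summed to 422 to 498 CPM with hairpin 1 and 472 to 487 CPM with hairpin 2, against 743 to 797 CPM in control cocultures and 649 to 1053 CPM in control cells alone. The summed level of 8 carcinoma line markers was 3494 to 3603 CPM with hairpin 1 and 3412 CPM in both hairpin 2 libraries, against 4365 to 4483 CPM in control cocultures and 3475 to 3745 CPM in control cells alone. VIM is a large part of that sum, and the 8 did not move as a set. Between control cocultures and control cells alone 5 had a log2 change above 0 and 3 below. Transcripts of 13 mitochondrially encoded genes summed to 6095 to 6970 CPM with hairpin 1 and 5921 to 6212 CPM with hairpin 2, against 6826 to 7291 CPM in control cocultures and 5729 to 6038 CPM in control cells alone. The part of these in the members' values was not tested. RNA of another cell type and RNA of the carcinoma cells cannot be told apart in a pull-down from a mixed lysate.

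Depleted cells with astrocytes were also set against control cells alone, a comparison without the control coculture. It differs in both the hairpins and the astrocytes, and it shares the hairpin libraries with the values that chose the members. Of the ATF4 group 8 of 20 members rose and 2 fell, where 10.8% of all genes rose and 6.34% fell (17.1% called in all). Of the ER group 6 of 21 rose and 4 fell. The median log2 change was 0.16 over the ATF4 group, -0.01 over the ER group and 0.00 over all genes tested. The depleted libraries lay above both libraries of control cells alone in 10 of 20 ATF4-group members and 7 of 21 ER-group members, where 24.1% of all genes did so. They lay below in 7 members of each group, where 20.6% of all genes did so.

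Rises in the ATF4 group were led by VLDLR, which stood at 37.8 and 38.3 CPM with hairpin 1 and 39.3 and 36.8 CPM with hairpin 2, against 23.8 and 25.0 CPM in control cells alone (log2 change 0.64, SE 0.0613, adjusted p = 0.00053, edgeR). SESN2 stood at 41.1 and 46.0 CPM with hairpin 1 and 43.0 and 44.3 CPM with hairpin 2, against 31.4 and 29.2 CPM in control cells alone (0.53, SE 0.07, adjusted p = 0.00251). TRIB3 stood at 156 and 158 CPM with hairpin 1 and 172 and 164 CPM with hairpin 2, against 121 and 117 CPM in control cells alone (0.45, SE 0.0539, adjusted p = 0.00153). All 4 depleted libraries lay above both libraries of control cells alone in these 3 genes. ADM2 (0.36, adjusted p = 0.0163), MTHFD2 (0.28, adjusted p = 0.012), CHAC1 (0.27, adjusted p = 0.0425), PCK2 (0.25, adjusted p = 0.027) and SHMT2 (0.22, adjusted p = 0.0248) rose by less.

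Members that fell with astrocytes in control cells did not all stand above the cells alone when connexin 43 was depleted. ASNS was at 0.05 (SE 0.0634, adjusted p = 0.591), PSAT1 at 0.15 (adjusted p = 0.15) and SLC7A11 at -0.12 (adjusted p = 0.223). PPP1R15A fell below control cells alone (-0.29, SE 0.0547, adjusted p = 0.0106), as did ATF5, which stood at 45.6 and 47.0 CPM with hairpin 1 and 43.4 and 40.2 CPM with hairpin 2, against 58.5 and 52.8 CPM in control cells alone (-0.34, SE 0.0668, adjusted p = 0.0122). ATF4 (-0.21, SE 0.106, adjusted p = 0.2) and DDIT3 (0.04, adjusted p = 0.889) did not pass. STC2 was at -0.10 (adjusted p = 0.321).

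In the ER group 4 folding genes fell below control cells alone, while 6 genes, mostly sensors and degradation factors, rose. HSPA5 stood at 182 and 170 CPM with hairpin 1 and 184 and 181 CPM with hairpin 2, against 239 and 216 CPM in control cells alone (-0.34, SE 0.0619, adjusted p = 0.00907). HSP90B1 (-0.32, adjusted p = 0.00932), CALR (-0.27, adjusted p = 0.011) and SDF2L1 (-0.36, adjusted p = 0.0227) fell as well. XBP1 stood at 164 and 154 CPM with hairpin 1 and 168 and 170 CPM with hairpin 2, against 120 and 124 CPM in control cells alone (0.43, SE 0.0556, adjusted p = 0.00233). EDEM1 (0.38, adjusted p = 0.0165), ERN1 (0.31, adjusted p = 0.022), SEL1L (0.27, adjusted p = 0.0311), EIF2AK3 (0.23, adjusted p = 0.0384) and DNAJB9 (0.23, adjusted p = 0.0491) rose. SEL1L is the adaptor of the degradation ligase SYVN1, which itself was at 0.02 (adjusted p = 0.846). HERPUD1 was at -0.02 (adjusted p = 0.893).

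TRIB3, SESN2, VLDLR and XBP1 kept this call in every fit without 1 library. The other 16 calls ended without library 1 of control cells alone or library 2 of hairpin 2, with 13 ending without library 2 of control cells alone and 10 without library 1 of hairpin 2. Leaving out library 1 or 2 of hairpin 1, or library 1 of the control coculture, ended 2 calls each, and leaving out library 2 of the control coculture ended 3, always among CHAC1, DNAJB9 and EIF2AK3. Over these fits the log2 change of HSPA5 ran from -0.42 to -0.28, that of HSP90B1 from -0.39 to -0.28 and that of CALR from -0.29 to -0.27. The highest adjusted p lay between 0.0903 for CALR and 0.267 for DNAJB9 among the 16, and none of the 20 called members changed direction. Exon length was correlated with the log2 change across 15434 genes in this comparison (Spearman rho 0.284). In the other comparisons rho was 0.163 for control coculture against control cells alone, -0.281 for hairpin 2 against hairpin 1 and 0.149 for depletion. The median exon length was 4232.5 bases in the ATF4 group, 5155 in the ER group and 4720 over the genes with a length, and the part of length in the calls was not tested.

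**Figure D3:**
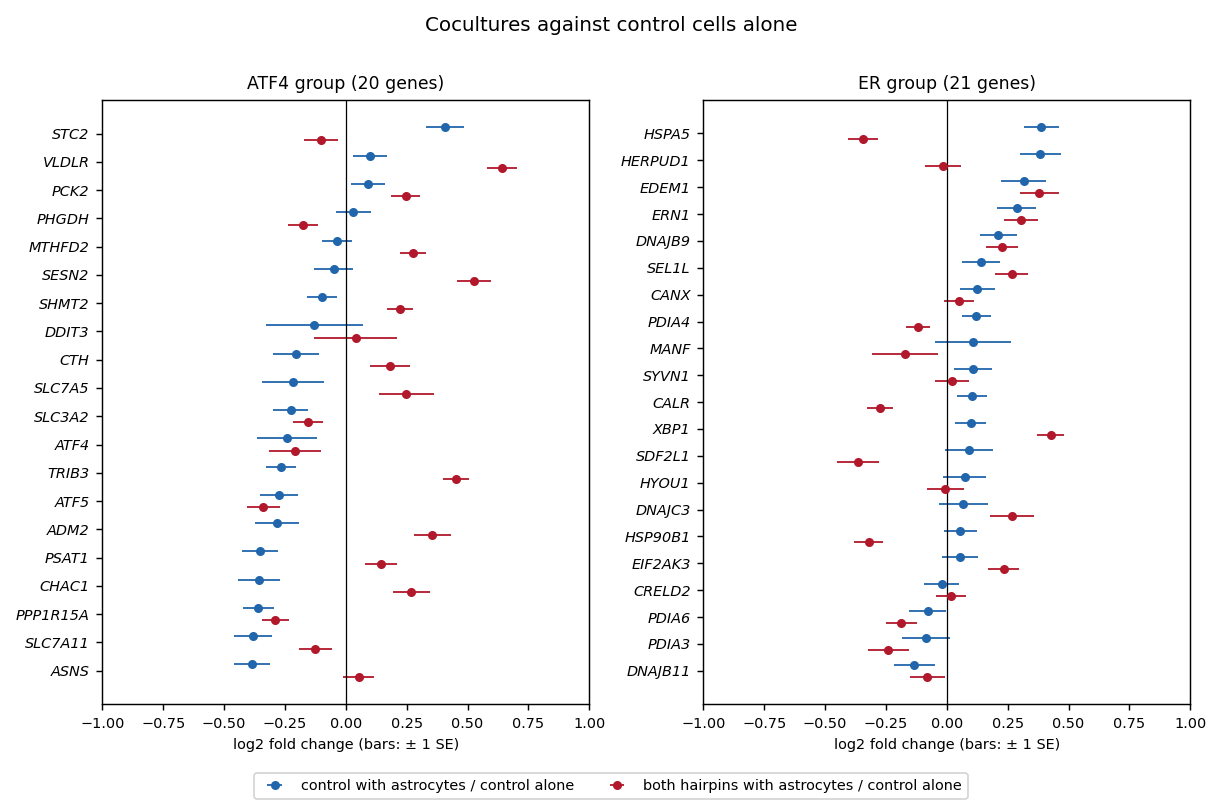
Log2 change of each of the 41 members against control cells alone, for the mean of both hairpin cocultures and for the control coculture, with bars of 1 standard error. TRIB3 stands at 0.45 in depleted cells and -0.27 in the control coculture, and HSPA5 at -0.34 and 0.39.

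Genes upstream of ATF4 were measured beside the members. EIF2AK2, the kinase PKR, which senses double-stranded RNA and is itself induced by interferon, stood at 148 and 163 CPM with hairpin 1 and 154 and 161 CPM with hairpin 2, against 329 and 305 CPM in control cocultures and 111 and 113 CPM in control cells alone. It rose by 1.50 (log2, SE 0.0746, adjusted p = 3.495e-06) in control cocultures and by 0.49 (SE 0.0648, adjusted p = 0.00251) in depleted cells, each against control cells alone. Both calls held without each library. The haem-regulated kinase EIF2AK1 and the amino acid sensor EIF2AK4 did not pass in either comparison, with log2 changes between -0.15 and 0.08 and adjusted p between 0.191 and 0.525. Of 15 eIF2 kinase, eIF2 and eIF2B genes 2 rose and 1 fell in control cocultures, where 8.74% of all genes rose and 2.93% fell. In depleted cells 4 rose and 1 fell, where 10.8% of all genes rose and 6.34% fell, each against control cells alone. Apart from those of EIF2AK2, none of these calls held in every fit that left out a library.

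A list of 34 other ATF4 and CHOP pathway genes, of which 31 were tested, was measured as well. In control cocultures 8 rose and 1 fell against control cells alone, where 8.74% of all genes rose and 2.93% fell. The rises were led by BBC3, the BH3-only protein PUMA (1.02, adjusted p = 5.976e-05), and KLHL24, a ubiquitin ligase adaptor (1.02, adjusted p = 0.0002595). The secreted GDF15 (0.95, adjusted p = 0.003586) and the transcription factor CEBPB (0.72, adjusted p = 0.0002735) rose as well, and so did DDIT4, an inhibitor of mTORC1 (0.58, adjusted p = 0.002487). These 5 calls held without each library. ATF3 did not pass (0.11, SE 0.125, adjusted p = 0.615). BBC3 stood at 22.9 and 24.3 CPM with hairpin 1 and 23.5 and 21.3 CPM with hairpin 2, against 33.4 and 34.1 CPM in control cocultures and 16.8 and 16.5 CPM in control cells alone. CEBPB stood at 134 and 131 CPM with hairpin 1 and 160 and 147 CPM with hairpin 2, against 162 and 173 CPM in control cocultures and 103 and 101 CPM in control cells alone. Both were thus highest in the control coculture, where TRIB3, CHAC1 and ASNS were lowest. The list as a whole did not follow BBC3 and CEBPB. In depleted cells against the control coculture 8 of the 31 were called higher and 6 lower. Of all genes 3.37% were called higher and 5.85% lower there. ALDH1L2 had the largest of these changes (log2 change 0.72) and, like TRIB3, was lowest in the control coculture.

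Against control cells alone 15 of these 31 rose and 2 fell in depleted cells, where 10.8% of all genes rose and 6.34% fell. Of these calls only those of SLC6A9, KLHL24, VEGFA and CEBPB held in every fit that left out a library. The largest changes were those of the glycine transporter SLC6A9 (0.68, adjusted p = 0.00138), KLHL24 (0.65, adjusted p = 0.002515), GADD45A (-0.64, adjusted p = 0.005144) and the growth factor VEGFA (0.57, adjusted p = 0.0004154). The call of GADD45A, a growth arrest gene, ended without library 2 of control cells alone (highest adjusted p = 0.0614, log2 change -0.76 to -0.54 over the fits), and the other 3 held without each library. Of 20 aminoacyl-tRNA synthetases 1 rose and 1 fell in that comparison, to be read against the same shares. Neither of these calls held in every fit that left out a library.

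Counts of other ER genes are to be read against the shares of all genes, of which 8.74% rose and 2.93% fell in control cocultures and 10.8% rose and 6.34% fell in depleted cells. Of 42 other ER folding and translocation genes 2 rose and 1 fell in control cocultures, and 2 rose and 4 fell in depleted cells, each against control cells alone. Of 23 other ER-associated degradation genes 1 rose and 1 fell in control cocultures, and 2 rose and 3 fell in depleted cells. None of the calls in these lists of folding and degradation genes held in every fit that left out a library. Of 18 tested regulators of the ATF6 and IRE1 arms 2 rose and none fell in control cocultures. In depleted cells 2 rose and 2 fell. CREB3L1, an ER-bound transcription factor, rose in control cocultures (0.72, adjusted p = 0.0006445, edgeR) and in depleted cells (0.62, adjusted p = 0.001167). Both calls held without each library. RTCB (-0.39, adjusted p = 0.005679, edgeR) and WFS1 (-0.39, adjusted p = 0.01837) fell in depleted cells. The call of RTCB held without each library, while that of WFS1 did not. ATF6 stood at 66.1 and 66.4 CPM with hairpin 1 and 66.6 and 70.1 CPM with hairpin 2, against 67.9 and 64.5 CPM in control cocultures and 59.0 and 58.4 CPM in control cells alone. It passed in depleted cells (0.20, adjusted p = 0.0412) and not in control cocultures (0.17, adjusted p = 0.116), both against control cells alone. The first call ended in 6 of the 8 fits that left out a library, those without either library of hairpin 2, of the control coculture or of control cells alone (0.18 to 0.22, highest adjusted p = 0.207).

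**Figure D4:**
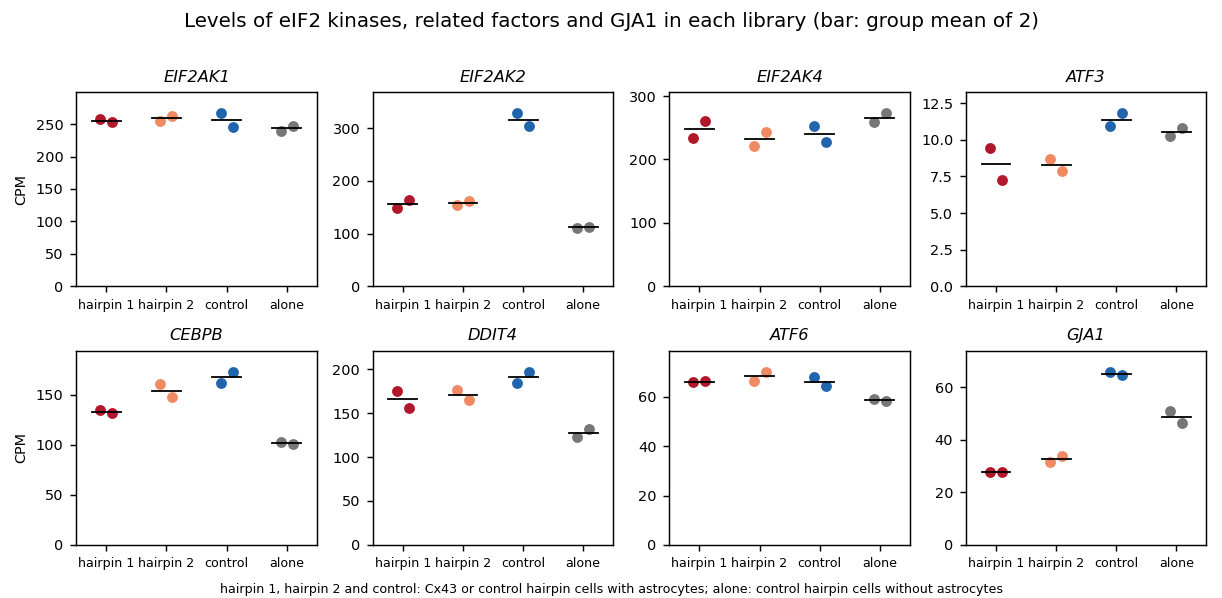
Level in CPM of EIF2AK1, EIF2AK2, EIF2AK4, ATF3, CEBPB, DDIT4, ATF6 and GJA1 in each library, by group (hairpin 1 coculture, hairpin 2 coculture, control coculture, control cells alone); points are libraries and the bar is the mean of 2. EIF2AK2 lies at 305 to 329 CPM in control cocultures and at 111 to 163 CPM in all other libraries.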

How the data were processed

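Polysome-associated RNA was recovered with anti-GFP beads and made into libraries with the TruSeq RNA kit v2, per the labels' protocols. That kit does not mark strand, so reads of a gene and of an antisense partner cannot be told apart. Per the submitters' processing notes, the tools were TopHat2, HTSeq and DESeq2 and the build was hg19, all with no version. Which annotation was counted, in which mode and with which strand setting is not given in the sources used here. The deposited table holds whole-number read counts per gene for 57445 genes, although its name calls them normalized, and its values were used as unnormalized counts. Its 5 counter entries were left out; 14.2% to 26.1% of the total were alignments to several places.

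Counts were tested in R 4.3.3 with edgeR 4.0.16 (quasi-likelihood, TMM factors 0.9755 to 1.029, mean count of at least 10, 15806 genes, all 8 libraries in 1 fit with group as the only term). Benjamini-Hochberg adjustment ran over all genes tested, and the threshold was 0.05. The standard error is the log2 change over the square root of F. The common biological coefficient of variation was 7.67%. Replicates differed by more than counting noise (chi-square per degree of freedom 4.22 to 32.6), and the 3-count floor covers counting error only. Exon lengths are merged exons of GENCODE release 29 matched by gene ID. Alternatives were median-of-ratios factors, DESeq2 1.42.0, no count filter, a replicate block, only the compared groups, and each library left out.

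The members, the other lists and the tests were chosen with earlier results of these data known. All 41 members could be named anywhere, with GJA1, EIF2AK1, EIF2AK2, EIF2AK4, ATF3, ATF6, CEBPB and DDIT4. From each other list of the pathway up to 4 genes per comparison could be named, those with the largest log2 change among called genes, and from marker lists the sums and the most abundant members. VIM, S100B and GJB6 are named as marker examples.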

Additional observations from a re-analysis of the deposited data

How the results depend on the processing

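No called member changed direction under any alternative. Members that were not called did so in 4 cases for control coculture against control cells alone, 5 for depleted cells against control cells alone, 6 for depletion and 21 between hairpins, all from log2 values of at most 0.27 in size, and the ER-group median for depleted cells against control cells alone ran from -0.03 to 0.04 without 1 library. Of 533 pairs of a member and an alternative in each comparison, the call was the same in 479 for control coculture against control cells alone (38 calls lost, 16 gained), 442 for depleted cells against control cells alone (81 lost, 10 gained), 492 for depletion (34 lost, 7 gained) and 532 for hairpin 2 against hairpin 1 (1 gained). With no filter on low counts, calls over all genes came to 2805 for the control coculture, 304 between hairpins and 4117 for depleted cells against control cells alone, and 1 ATF4-group member was lower in hairpin 2. Between hairpins DESeq2 called 18 genes and a fit of only the compared groups 2. Deviations of same-numbered libraries from their group means correlated at -0.562 to 0.315. Library differences also followed exon length, so these correlations cannot decide whether replicate numbers pair the samples. The fit with a replicate block called 1160 genes for the control coculture (ATF4 group 3 lower, ER group 1 higher), 1502 for depleted cells against control cells alone (ATF4 group 5 higher, ER group 2 higher), 700 for depletion and 0 between hairpins. Without 1 library, calls over all genes ran from 738 to 2582 for the control coculture, 531 to 4717 for depleted cells against control cells alone, 343 to 2314 for depletion and 0 to 3 between hairpins. In the same fits the ATF4 group had 0 to 1 members higher and 1 to 8 lower in the control coculture, 3 to 8 higher and 0 to 4 lower in depleted cells against control cells alone, and 6 to 12 higher in depletion. The ER group had 0 to 4 higher in the control coculture, 1 to 6 higher and 0 to 6 lower in depleted cells against control cells alone, and 0 to 2 higher and 1 to 7 lower in depletion. The cause of these shifts was not tested.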
